A study of Homo sapiens with 6 samples.

Results

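The TFEB transcription factor family, folliculin with its partners and the Rag GTPases form the lysosomal nutrient-sensing arm of mTORC1, the kinase complex that couples growth to nutrients. The group was named by symbol (TFEB, TFE3, MITF, FLCN, FNIP1, FNIP2, RRAGA, RRAGB, RRAGC and RRAGD), and a gene was kept where its mean over all libraries was at least 10 normalized counts. This kept 9 of the 10 symbols, out of 17202 genes in the table. FNIP2, with a mean of 22.3, lay just above that limit and MITF, with 2.14, lay below it in both groups. The data are strand-specific RNA-seq of DND41, an established human T-cell acute lymphoblastic leukaemia line, in 6 libraries. Of these, 3 came from cells given MB1-47 and 3 from cells given the solvent DMSO. All cultures were kept in medium with serum and harvested after 24 h. The series title names MB1-47 as a mitochondrial uncoupling drug. The labels write its concentration as 4 mM, a unit that could not be checked. The samples are a single cell line plated in triplicates, and nothing in the labels says that the triplicates were separate experiments, so a p-value here reflects differences among libraries that could be technical replicates. Because RNA is given as relative levels, fewer transcripts per cell and a larger pool of other RNA cannot be told apart.

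As background, Rag GTPases work as pairs of RagA or RagB with RagC or RagD on the lysosome surface, where they dock mTORC1 when amino acids are plentiful. Folliculin, bound to FNIP1 or FNIP2, is a GTPase-activating protein for RagC and RagD, and the folliculin-activated Rags present TFEB and TFE3 to mTORC1. Phosphorylated TFEB and TFE3 are held in the cytosol by 14-3-3 proteins. When phosphorylation is lost they enter the nucleus and bind E-boxes of the CLEAR network (coordinated lysosomal expression and regulation), whose known targets include lysosomal genes and also FLCN, FNIP1, FNIP2, RRAGC and RRAGD. Phosphorylation and location of these proteins were not measured here.

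Promoter sequence is shown for the genes of the group whose promoters hold CACGTG, the core of the E-boxes of the CLEAR network. RefSeq promoters (GRCh38.p14, 250 bases before to 50 after the start of transcription) were matched for 8 of the 10 symbols, as 13 windows; RRAGA and RRAGD were not matched. Both strands were searched, on which CACGTG reads the same. It was found in 3 of the 8 genes, namely FNIP1, RRAGC and RRAGB, against 7.26% of all 35116 promoter windows and 8.77% of all 27305 genes in that table. The stretches below run 5′ to 3′ on the strand of the gene, and capitals mark CACGTG. FNIP1 is shown for chr5:131797078-131797217 on the minus strand, RRAGC for chr1:38859833-38859972 on the minus strand and RRAGB for chrX:55717549-55717738 on the plus strand. Each begins 200 bases before the start.
FNIP1: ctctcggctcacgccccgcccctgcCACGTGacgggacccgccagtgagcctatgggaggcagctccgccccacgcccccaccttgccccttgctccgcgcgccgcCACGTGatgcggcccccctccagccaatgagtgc
RRAGC: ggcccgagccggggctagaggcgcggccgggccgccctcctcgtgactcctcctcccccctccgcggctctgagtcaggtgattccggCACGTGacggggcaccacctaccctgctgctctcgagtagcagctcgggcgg
RRAGB: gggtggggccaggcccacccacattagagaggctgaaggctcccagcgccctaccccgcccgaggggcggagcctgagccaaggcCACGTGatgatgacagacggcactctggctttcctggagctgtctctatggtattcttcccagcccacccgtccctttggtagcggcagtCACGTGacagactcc

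The FNIP1 motifs begin 175 and 94 bases before the start, and the RRAGC motif begins 112 bases before it. RRAGB holds 3 motifs, which begin 115 and 25 bases before the start and at base 8 of the transcript. The RRAGB motif at 25 bases lies inside the full CLEAR palindrome GTCACGTGAC, which contains CACGTG and occurs in 0.353% of all promoter windows. The stretches of FNIP1 and RRAGC hold neither the palindrome nor its shorter form TCACGTGA, which occurs in 0.98% of all promoter windows. No CACGTG was found in the windows of TFEB, TFE3, MITF, FLCN or FNIP2, which says only that these letters are not in those windows. A match describes sequence and does not show binding.

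With MB1-47, FNIP1, RRAGD, FLCN, RRAGC and TFE3 rose, by 0.64 to 1.21 on the log2 scale, while RRAGA, RRAGB and FNIP2 did not pass the test and TFEB was higher in every library without passing. Per gene, limma was fitted over all 13465 genes with a mean of at least 10, on log2(normalized count + 1), so a log2 change understates the change of low genes. Of the 9 tested members, 5 were called higher and 0 lower at an adjusted p under 0.05; at an unadjusted p under 0.05 limma gave 6 higher and 0 lower. Across all genes tested, 38.1% were called, 18.3% higher and 19.8% lower. The MB1-47 values lay wholly above the DMSO values in 6 of the 9 members, against 24.1% of all genes tested (49.3% in either direction). The median log2 change of the 9 was 0.92, against 0.02 over all genes tested. The 5 calls were kept in each of the 15 alternative settings of the fit.

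**Figure D1:**
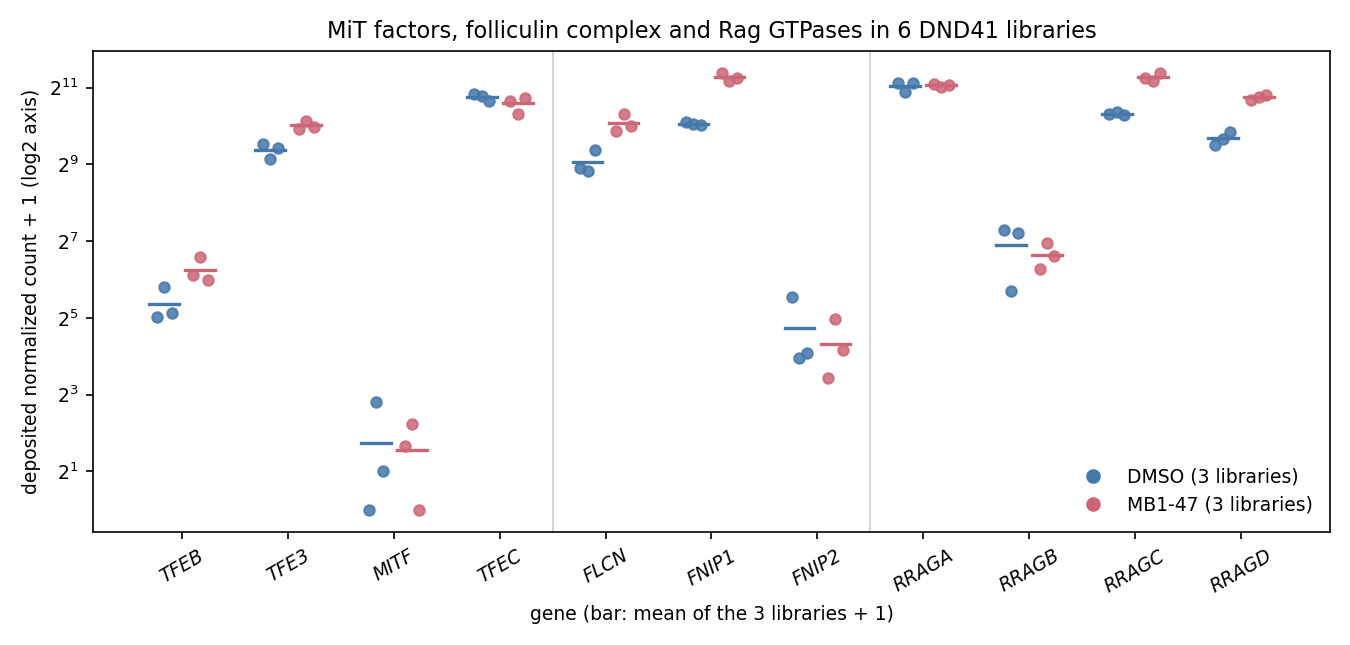
Deposited normalized counts + 1 (log2 axis) of each gene in the 3 DMSO (blue) and 3 MB1-47 (red) libraries; a bar marks the mean of a group + 1. The groups are apart for TFEB, TFE3, FLCN, FNIP1, RRAGC and RRAGD, and they overlap for MITF, TFEC, FNIP2, RRAGA and RRAGB.

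Among the transcription factors, TFE3 was the member with a clear level and a call. TFE3, a basic helix-loop-helix leucine zipper factor closely related to TFEB, lies on the minus strand of chromosome X from 49028726 to 49043486 (GENCODE 29, GRCh38). It stood at 745, 565 and 692 normalized counts in DMSO replicates 1, 2 and 3 and at 979, 1115 and 1011 in MB1-47 replicates 1, 2 and 3. Every MB1-47 library lay above every DMSO library. The group means were 667 ± 92.9 and 1035 ± 71.4 (SD, n = 3), and the log2 change was 0.64 ± 0.14 (SE) with a limma adjusted p of 0.00475. The adjusted p stayed between 0.00149 and 0.0204 over the 15 alternatives.

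TFEB itself, on chromosome 6 from 41683978 to 41736259 on the minus strand, was present at a far lower level. Its normalized counts were 31.4, 54.9 and 33.8 with DMSO and 68.5, 95.7 and 62.9 with MB1-47. The groups did not overlap, with means of 40.0 ± 12.9 and 75.7 ± 17.5 (SD, n = 3). The log2 change of 0.92 ± 0.41 had a 95% interval from 0.02 to 1.83 and an unadjusted p of 0.0464, and its limma adjusted p of 0.102 did not pass. It passed in 0 of the 15 alternatives, where the adjusted p ran from 0.0534 to 0.285. An antisense gene overlaps TFEB, and whether the quantification used strand is not given in the sources used here.

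MITF, the family member known as the master regulator of melanocytes, was near 0. It was listed at 0, 5.97 and 1.01 normalized counts with DMSO and at 2.15, 3.72 and 0 with MB1-47, and it was not tested. A list of 8 genes typical of MITF-expressing melanocytes and osteoclasts was checked beside it. Of these, 6 matched the table and 4 were tested. CTSK, an osteoclast protease, passed as higher at 126.5 ± 35.9 normalized counts with DMSO and 254.9 ± 52.7 with MB1-47 (SD, n = 3; log2 change 1.02 ± 0.28, limma adjusted p = 0.0146), and missed the threshold in 3 of 15 alternatives. The melanocyte genes MLANA, PMEL and DCT were tested and did not pass, and TYR and TYRP1 were not matched. DCT was low but higher in every MB1-47 library, from 10.0 ± 5.25 to 40.6 ± 23.8 (1.92 ± 0.72, limma adjusted p = 0.0579). It passed in 2 of 14 alternatives. The list thus had 1 of 4 called higher, beside 18.3% of all genes tested. All 4 changes were positive, with a median of 1.41. The summed level of the list was between 165 and 209 with DMSO and between 261 and 459 with MB1-47, and its part in the results was not tested.

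TFEC, the remaining relative, was not among the named members and was added after its values were seen, because its level with DMSO was the highest of the family. It is known as a factor of the same family with a restricted expression, and lies on chromosome 7 from 115935148 to 116159896. Its normalized counts were 1814, 1751 and 1601 with DMSO and 1621, 1281 and 1714 with MB1-47. The groups overlapped, and the log2 change of -0.17 ± 0.13 (limma adjusted p = 0.326; 95% interval -0.46 to 0.11) did not pass. Within each library the log2 ratio of TFE3 to TFEC moved from -1.37 ± 0.23 with DMSO to -0.56 ± 0.31 with MB1-47 (SD, n = 3). Per kilobase of the longest coding transcript, TFEC made up 55.2% ± 2.93 of the summed level of TFEB, TFE3, MITF and TFEC with DMSO and 41.1% ± 5.54 with MB1-47. TFE3 made up 41.4% ± 4.2 and 53.7% ± 4.23, and TFEB 3.31% ± 1.21 and 5.18% ± 1.27 (SD, n = 3).

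Folliculin rose together with FNIP1. FLCN, the tumour suppressor of Birt-Hogg-Dubé syndrome, lies on chromosome 17 from 17212212 to 17237188 on the minus strand. Its normalized counts were 479, 456 and 663 with DMSO and 929, 1264 and 1030 with MB1-47. The groups did not overlap, and the means of 533 ± 113 and 1074 ± 172 (SD, n = 3) gave a log2 change of 1.02 ± 0.18 (limma adjusted p = 0.00102). MPRIP overlaps FLCN on the opposite strand and did not pass, at 7605 ± 1262 with DMSO and 6340 ± 657 with MB1-47 (log2 change -0.25 ± 0.13, limma adjusted p = 0.142). AC055811.2, which overlaps FLCN on its own strand, was listed at 0 in every library but MB1-47 replicate 3, at 11.7.

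FNIP1, the folliculin-interacting protein whose loss blocks B-cell development in mice, showed the largest log2 change of the members. It lies on chromosome 5 from 131641714 to 131797063 on the minus strand. Its normalized counts were 1097, 1065 and 1039 with DMSO and 2689, 2304 and 2440 with MB1-47. The DMSO libraries lay close together and every MB1-47 library lay above them. FNIP1 went from 1067 ± 29.3 to 2478 ± 195 (SD, n = 3), a log2 change of 1.21 ± 0.11 (2.32-fold, limma adjusted p = 8.3e-06). The annotated coding gene AC008695.1 overlaps FNIP1 on the same strand and was not analysed here, so reads it shares with FNIP1 cannot be told apart.

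The paralog FNIP2, on chromosome 4 from 158769138 to 158908049, was close to the lower limit of the test. It was at 46.0, 14.5 and 16.1 normalized counts with DMSO and at 9.88, 30.6 and 17.1 with MB1-47. The groups overlapped, and the log2 change of -0.33 ± 0.71 had a 95% interval from -1.90 to 1.23 (limma adjusted p = 0.747), wide enough to include the change of FNIP1. Without DMSO replicate 1, the highest of its libraries, the estimate turned to 0.17, and without MB1-47 replicate 1 to 0.04. The within-library log2 ratio of FNIP2 to FNIP1 was -5.53 ± 0.85 with DMSO and -7.07 ± 0.88 with MB1-47. FNIP1 made up 97.8% ± 1.43 and 99.3% ± 0.455 of the summed level of both genes per kilobase of longest coding transcript (SD, n = 3).

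The RagC and RagD genes rose, and the RagA and RagB genes did not pass the test. RRAGC, on chromosome 1 from 38838198 to 38859823 on the minus strand, stood at 1273, 1316 and 1240 normalized counts with DMSO and at 2449, 2301 and 2682 with MB1-47. The groups were well apart, at 1276 ± 38.1 and 2477 ± 192 (SD, n = 3), with a log2 change of 0.95 ± 0.10 (limma adjusted p = 3.8e-05). The non-coding AL139260.2 overlaps RRAGC on the same strand and was not analysed here. RRAGD, on chromosome 6 from 89364636 to 89412270 on the minus strand, stood at 724, 817 and 921 with DMSO and at 1642, 1744 and 1787 with MB1-47. Again no library of either group reached the other, and the means were 820.5 ± 98.7 and 1724 ± 74.3, a log2 change of 1.08 ± 0.12 (limma adjusted p = 5.9e-05).

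RRAGA, an intronless gene on chromosome 9 from 19049395 to 19050983, was at 2240, 1896 and 2227 normalized counts with DMSO and at 2178, 2089 and 2134 with MB1-47. All MB1-47 values lay inside the DMSO range. The log2 change was 0.01 ± 0.10 with a 95% interval from -0.21 to 0.24 (limma adjusted p = 0.937), an interval that leaves out a change of the size seen for RRAGC or RRAGD. RRAGB, its paralog on chromosome X from 55717739 to 55758774, was much lower and more variable. It was at 156, 51.3 and 147 with DMSO and at 76.4, 122 and 97.0 with MB1-47, and the groups overlapped. Its log2 change was -0.12 ± 0.43 (95% interval -1.08 to 0.83, limma adjusted p = 0.848). The interval includes changes in either direction. Its upper end lies below the estimates for RRAGC and RRAGD. It overlaps their own 95% intervals, 0.73 to 1.18 for RRAGC and 0.80 to 1.35 for RRAGD. TFEB, with a similar SE of 0.41, did not pass at a log2 change of 0.92. A rise of RRAGB of about that size could thus also have been missed. Without DMSO replicate 2, its lowest library, the estimate was -0.64. RRAGA and RRAGB are close paralogs, and how reads were shared between them was not examined.

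Ratios of members were taken within each library as log2 of (value + 1) over (value + 1), so that a scale factor per library cancels except for genes near 0, such as MITF. The log2 ratio of RRAGC to RRAGA was -0.73 ± 0.18 with DMSO and 0.21 ± 0.10 with MB1-47, a difference of 0.94 ± 0.12 (SE). That of RRAGD to RRAGA went from -1.37 ± 0.22 to -0.31 ± 0.09, a difference of 1.06 ± 0.14. Neither ratio overlapped between the groups. By contrast the log2 ratio of RRAGD to RRAGC differed by 0.12 ± 0.13, that of FNIP1 to FLCN by 0.19 ± 0.27 and that of TFE3 to TFEB by -0.28 ± 0.39, each with overlapping groups. The ratio of RRAGB to RRAGA differed by -0.14 ± 0.48 and that of MITF to TFEB by -0.89 ± 0.79, also with overlap, and that of FNIP2 to FNIP1 by -1.55 ± 0.71 without overlap. Leaving out single libraries moved the difference of FNIP2 to FNIP1 from -1.99 to -1.06. The other ratios without overlap ran from 0.88 to 1.04 (RRAGC to RRAGA), 0.94 to 1.14 (RRAGD to RRAGA) and 0.63 to 0.91 (TFE3 to TFEC). TFE3 to TFEB ran from -0.64 (without DMSO replicate 2) to -0.05 (without DMSO replicate 1). FNIP1 to FLCN ran from 0.0062 (without DMSO replicate 3) to 0.37 (without MB1-47 replicate 2). MITF to TFEB ran from -1.38 (without DMSO replicate 1) to -0.36 (without MB1-47 replicate 3) and was -1.15 under quantile normalization. RRAGD to RRAGC ran from 0.04 (without DMSO replicate 1) to 0.23 (without DMSO replicate 3), and RRAGB to RRAGA from -0.57 (without DMSO replicate 2) to 0.10 (without DMSO replicate 1). With 3 libraries against 3, the two-sided exact permutation test cannot go below 0.1, and RRAGC to RRAGA, RRAGD to RRAGA, FNIP2 to FNIP1 and TFE3 to TFEC (0.81 ± 0.22) reached that value (adjusted p = 0.225 over 9 ratios). The other 5 had exact p-values from 0.4 to 0.8. The ratios to RRAGA, FNIP1 to FLCN and TFE3 to TFEC were chosen after the values were seen.

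**Figure D2:**
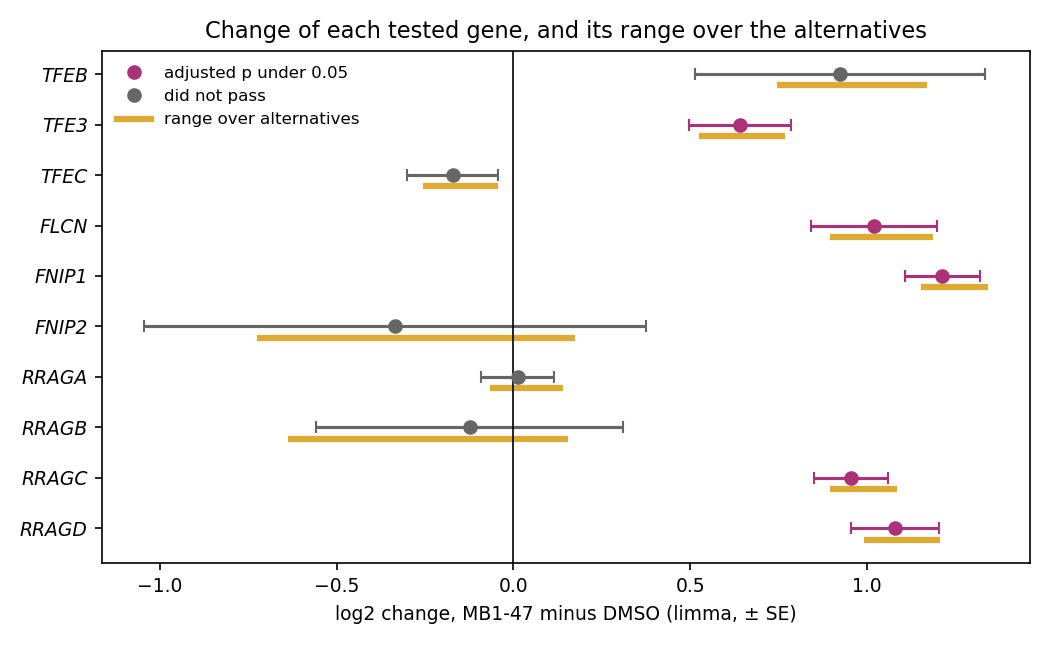
Log2 change of each tested gene (MB1-47 minus DMSO, limma, ± SE), purple where the adjusted p was under 0.05, with the range over the alternative settings as a yellow bar. TFE3, FLCN, FNIP1, RRAGC and RRAGD stay right of 0 throughout, while the ranges of FNIP2, RRAGA and RRAGB cross 0.

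To order the genes by level, normalized counts were taken per kilobase of the longest coding transcript in GENCODE 29. With DMSO the order was RRAGA (1335 ± 123 normalized counts per kilobase), RRAGC (467 ± 13.9), TFEC (260 ± 16.5), TFE3 (195 ± 27.2), RRAGD (167 ± 20.1), FNIP1 (162 ± 4.44), FLCN (147 ± 31.2), RRAGB (57.2 ± 28.0), TFEB (15.4 ± 4.99), FNIP2 (3.69 ± 2.56) and MITF (0.483 ± 0.664) (SD, n = 3). TFE3, RRAGD, FNIP1 and FLCN were neighbours whose libraries overlapped. With MB1-47, RRAGA (1343 ± 28.1) and RRAGC (907 ± 70.3) still led, followed by FNIP1 (376 ± 29.6), RRAGD (352 ± 15.2), TFE3 (303 ± 20.9), FLCN (295 ± 47.2) and TFEC (232 ± 34.3). Among neighbours in this order, FNIP1 overlapped with RRAGD, TFE3 with FLCN and FLCN with TFEC, while RRAGD lay above TFE3 in every library. RRAGB (47.8 ± 11.2), TFEB (29.2 ± 6.75), FNIP2 (2.77 ± 1.52) and MITF (0.407 ± 0.388) kept the last places. With the median coding transcript as the length, the DMSO level of FLCN was 435 per kilobase, in place 3, that of TFEB 30.2 and that of FNIP2 11.7.

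FNIP1, as the called member with the largest change, was compared with every gene of mean at least 100 and an approved symbol by the root mean square distance between log2 values centred on each gene's mean over the 6 libraries. The nearest of 9831 genes were PAG1 (0.0298), which encodes a membrane adaptor that binds the kinase CSK, ZBTB41 (0.0381), a zinc finger gene, and SDAD1P1 (0.0443), a pseudogene whose reads may come from SDAD1. PAG1 went from 5116 ± 102.5 to 12186 ± 894 normalized counts and ZBTB41 from 987 ± 68.7 to 2249 ± 199 (SD, n = 3). Within the group RRAGC was the nearest to FNIP1 at 0.153, in place 142, followed by RRAGD at 0.170 in place 197, FLCN at 0.286 in place 735 and TFE3 at 0.330 in place 1071.

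The Ragulator complex (LAMTOR1 to LAMTOR5), which anchors the Rags to the lysosome, and SLC38A9, a lysosomal arginine sensor, were all tested. SLC38A9 stood at 920, 1092 and 957 normalized counts with DMSO and at 1590, 1720 and 1722 with MB1-47 and rose (log2 change 0.76 ± 0.12, limma adjusted p = 0.000377). LAMTOR5 (-0.71 ± 0.19), LAMTOR4 (-0.46 ± 0.14) and LAMTOR1 (-0.34 ± 0.12) fell. The list thus had 1 of 6 higher and 3 lower, beside 18.3% and 19.8% of all genes tested, and its median was -0.18. Each of the 3 lower calls was lost when some single libraries were left out. LAMTOR5 had a limma adjusted p of 0.0642 without DMSO replicate 3 and of 0.0529 without MB1-47 replicate 1. LAMTOR4 missed the threshold without DMSO replicate 1 (0.0783) or 3 (0.0771) and without MB1-47 replicate 1 (0.0905) or 3 (0.0629). Over all 15 alternatives LAMTOR4 kept its call in 9. LAMTOR1 missed it in 8 of 15 alternatives, among them those without DMSO replicate 1 (0.141) or 2 (0.0981) and without MB1-47 replicate 1 (0.111) or 3 (0.124).

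GATOR1, the complex that switches RagA and RagB off, and KICSTOR, its lysosomal anchor, had 7 tested genes, of which limma called 0, beside 38.1% of all genes tested; 0 had an unadjusted p under 0.05, and the median change was -0.02. Among GATOR2 and the cytosolic sensors, 4 of 11 rose and 1 fell, beside 18.3% higher and 19.8% lower over all genes tested (median 0.08). SESN2, a stress-induced leucine sensor, rose from 901 ± 82.7 to 2160 ± 210.4 normalized counts (SD, n = 3 here and below) (1.26 ± 0.12, limma adjusted p = 1.7e-05), SESN1 by 0.78 ± 0.14 and BMT2, which encodes the S-adenosylmethionine sensor SAMTOR, by 0.91 ± 0.13. SESN3 was at 0, 1.85 and 1.87 with DMSO and at 28.5, 36.7 and 59.4 with MB1-47, too low for a stable fold (limma adjusted p = 0.00354). Its DMSO level lay below the limit for testing, so SESN3 entered the test only through its MB1-47 libraries. It is among the 4 counted as higher. With the filter at a mean of 50 that count was 3, and with no filter it was 4. SEH1L, a GATOR2 subunit that also serves in the nuclear pore, fell from 10668 ± 940 to 4857 ± 191 (-1.13 ± 0.09, limma adjusted p = 3.9e-06).

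Of 10 genes for mTORC1 itself and its TSC-RHEB switch, 2 rose and 2 fell, with a median of 0.17. These shares are near the 18.3% higher and 19.8% lower of all genes tested. RPTOR, the scaffold that binds the Rags, fell from 2296 ± 319 to 1485 ± 94.3 normalized counts (-0.62 ± 0.12, limma adjusted p = 0.00223), and its call was kept in the 15 alternatives. MLST8 (-0.41 ± 0.15) fell, while TSC2 (0.40 ± 0.11), which inactivates RHEB, and its partner TSC1 (0.36 ± 0.13) rose. TSC2 missed the threshold without DMSO replicate 3 (limma adjusted p = 0.0637) or MB1-47 replicate 2 (0.0592). TSC1 missed it without DMSO replicate 1 (0.149) or 3 (0.102) and without MB1-47 replicate 2 (0.123) or 3 (0.156). MLST8 missed it without DMSO replicate 2 (0.0831) or 3 (0.168) and without MB1-47 replicate 1 (0.16) or 3 (0.0899). Some other settings also lost these calls. Over all 15 alternatives TSC2 kept its call in 12, TSC1 in 9 and MLST8 in 7.

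Among genes that act on the phosphorylation and location of TFEB factors, 1 of 13 tested rose and 6 fell, beside 18.3% and 19.8% of all genes tested, with a median of -0.29. Of the 6 that fell, 5 were 14-3-3 genes. PPP3CA rose from 2917 ± 80.8 to 5450 ± 614 normalized counts (0.90 ± 0.10, limma adjusted p = 4.7e-05). It encodes a catalytic subunit of calcineurin, which dephosphorylates TFEB. The other calcineurin genes of the list, PPP3CB (0.345 ± 0.135), PPP3CC (0.313 ± 0.147) and PPP3R1 (0.0927 ± 0.119), did not pass. The 14-3-3 genes YWHAQ, from 25811 ± 1824 to 13418 ± 634 (-0.94 ± 0.08), and YWHAG, from 27160 ± 799 to 14235 ± 862 (-0.93 ± 0.07), fell, as did YWHAE (-0.76 ± 0.09), YWHAB (-0.49 ± 0.07), YWHAZ (-0.45 ± 0.08) and the exportin XPO1 (-0.42 ± 0.12), which missed the threshold in 4 of 15 alternatives. YWHAH (-0.29 ± 0.11) did not pass.

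Of 43 tested lysosomal and autophagy genes of the CLEAR network, other than the members themselves, 10 rose, 3 fell and 30 were not called. The share called higher is near the 18.3% of all genes tested, of which 19.8% were lower, and the list's median was 0.13 against 0.02. WIPI1, which acts in autophagosome formation, went from 389, 326 and 377 normalized counts to 1063, 1037 and 1173 (1.58 ± 0.14, limma adjusted p = 1.1e-05). MAP1LC3B, the autophagosome marker LC3B, rose from 2956 ± 268 to 5775 ± 668 (0.96 ± 0.11). Among those that fell were GLA (-0.82 ± 0.13), which encodes a lysosomal galactosidase, and ATP6V1B2 (-0.33 ± 0.08), a subunit of the proton pump. MCOLN1, a lysosomal calcium channel counted in both of these lists, did not pass (0.29 ± 0.29).

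**Figure D3:**
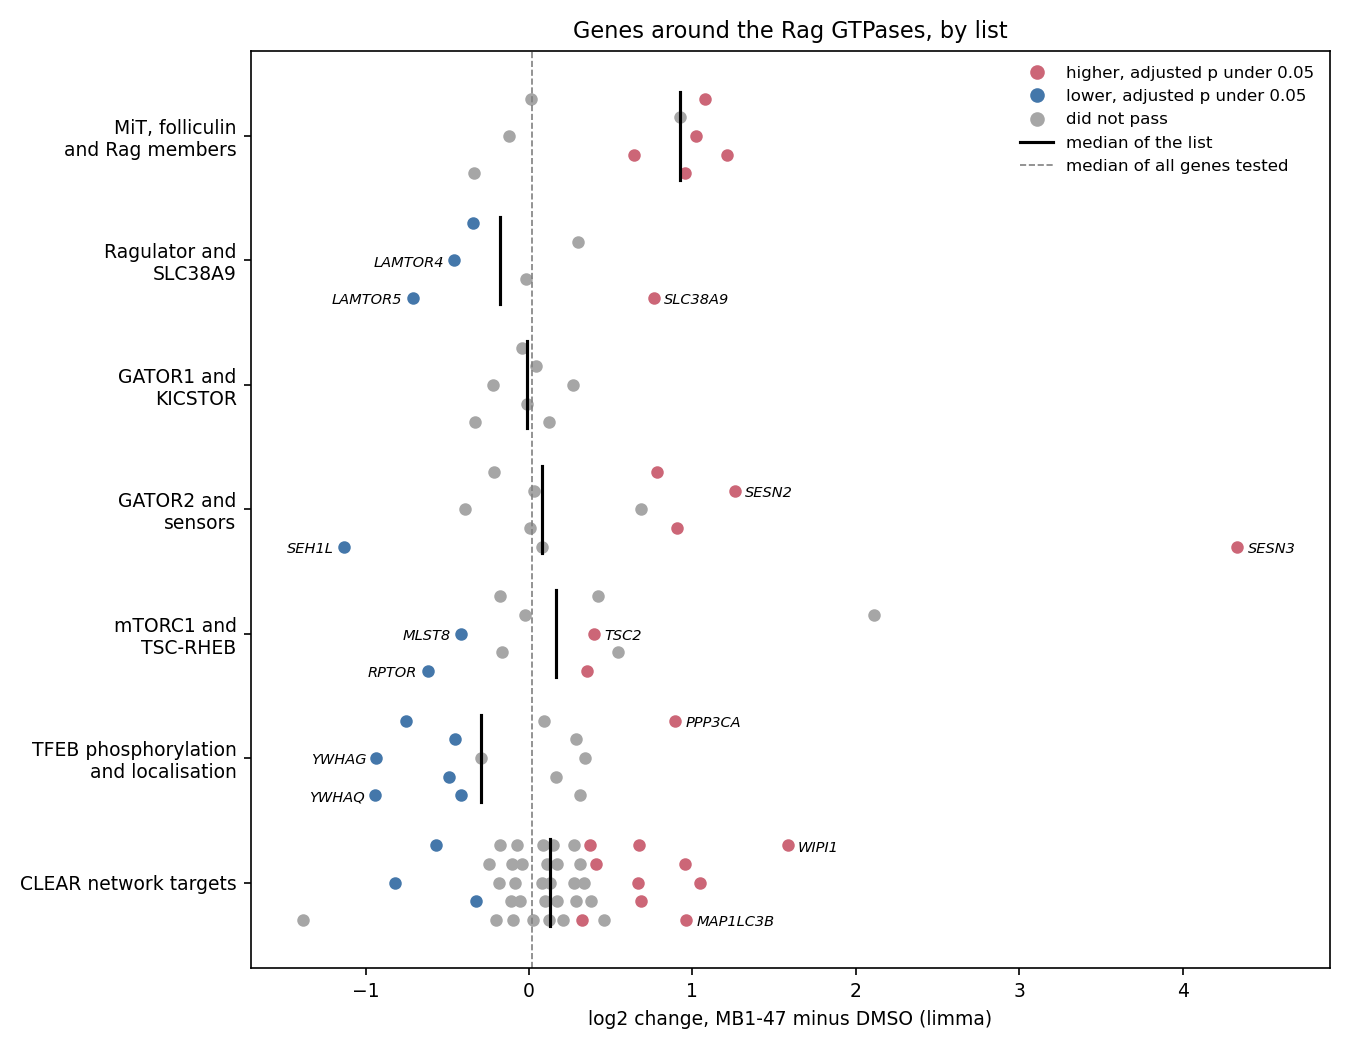
Log2 changes (MB1-47 minus DMSO) of the 9 tested members and of 6 gene lists around them, 1 point a gene, red or blue where the adjusted p was under 0.05 and grey otherwise; black bars are list medians and the dashed line is the median of all genes tested, at 0.02. The members' median of 0.92 lies right of the medians of these 6 lists, which run from -0.29 to 0.17.

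Totals of normalized counts per library ran from 30788198 to 32667526 with DMSO and from 28323706 to 29673925 with MB1-47, without overlap. The depth of each library is unknown. Of 12 T-lineage markers of the cell line, 11 were tested and 7 of these 11 were lower with MB1-47, beside 19.8% of all genes tested. Their summed level was 100490 to 102937 with DMSO and 60789 to 68362 with MB1-47. Not all were well expressed. With DMSO, CD5 was at 0, 25.9 and 2.01 and CD2 at 38.5, 34.1 and 75.1, and PTCRA was not matched. Of 10 myeloid and erythroid markers 3 matched the table, and their summed level was 16.6 to 44.9 with DMSO and 24.5 to 34.9 with MB1-47. Of 5 tested B-lineage markers 1 fell and 1 rose, near the 19.8% lower and 18.3% higher of all genes tested. The summed level of this list was 16813 to 18078 with DMSO and 7554 to 8474 with MB1-47. CD79A fell from 16526 ± 572 to 6826 ± 391 normalized counts, while EBF1 rose from 799 ± 104 to 1072 ± 156 (SD, n = 3), a call kept in 8 of 15 alternatives. The part of these shifts in the members' results was not tested.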

How the data were processed

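The authors deposited 1 table of DESeq normalized counts per gene symbol, treated as signal values. The submitters' processing notes name kallisto 0.44.0, DESeq and the build GRCh38.p13; annotation, strand setting and filters were not stated there. Between 59.4% and 65.4% of a library's low values lay within 0.1 of a whole multiple of the best common step, too few to recover whole reads, and no count test was run. limma 3.58.1 in R 4.3.3 fitted MB1-47 against DMSO on log2(value + 1) with an intensity trend, for genes with a mean of at least 10, with Benjamini-Hochberg adjustment and a threshold of 0.05. The steps were tested on simulated data in which a far smaller share of genes changed than was called here. This checks the steps, not the calls in these data. Alternatives were pseudocounts of 0.5 and 5, no filter or a mean of 50, trimmed-mean (TMM) factors, equal totals, quantile normalization, no trend, a replicate block and leaving out each library. The members, lists and tests were chosen with earlier results of these data known. Named were the members, up to 3 called genes per list with the largest change, and the 3 genes nearest to FNIP1. TFEC, LAMTOR1, SESN1, BMT2, TSC1, the 14-3-3 genes past the first 2 and XPO1 were named after their values were seen. So were the calcineurin genes other than PPP3CA, GLA, ATP6V1B2, MCOLN1, overlapping genes and markers. Some list genes are not reported here by name. Of list genes, KICS2 matched as C12orf66; CTSF and SFN were not matched. Figures used matplotlib 3.10.9 in Python 3.11.15.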

Additional observations from a re-analysis of the deposited data

How the results depend on the processing

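The 5 members called higher and the 0 called lower were the same count in all 15 alternative settings of the fit. Equal library totals moved the median of all genes from 0.02 to 0.15 and the split of calls from 2458 higher and 2667 lower to 3335 and 2063, and leaving out single libraries gave 1950 to 2320 higher and 2127 to 2491 lower. Small list counts moved more; the cause was not tested. Ragulator and SLC38A9 had 2 higher and 1 lower under equal totals and 1 lower without a trend, and 1 to 2 higher and 0 to 3 lower when single libraries were left out. mTORC1 and TSC-RHEB had 1 higher without a filter, 0 higher and 1 lower without a trend, and 1 lower under TMM factors, equal totals or quantile normalization; leaving out libraries gave 0 to 2 higher and 1 to 2 lower. The list on TFEB phosphorylation had 3 higher under equal totals, 2 under quantile normalization and 1 to 3 without single libraries. Of the members that did not pass, RRAGB, FNIP2 and RRAGA had estimates that turned sign. RRAGB was 0.0037 under equal totals and ran from -0.64 to 0.15 without single libraries. FNIP2 ran from -0.72 to 0.17, RRAGA from -0.066 to 0.054, and the RRAGB to RRAGA log2 ratio from -0.57 to 0.10. The estimate of TFEB stayed positive, from 0.744 to 1.17 over the 15 alternatives.

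Replicate numbers are shared by the groups in the labels only as numbers: deviations of same-numbered libraries correlated at 0.0224, 0.0566 and 0.00724 for replicates 1, 2 and 3, so they were not taken as pairs. With the replicate number as a block 2531 genes were higher and 2715 lower, 5 members were higher, and the limma adjusted p of TFEB was 0.104. DMSO replicate 1 correlated more with MB1-47 replicate 3 (0.0339) than with its own number.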
